A study of Homo sapiens with 12 samples.

Results

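Some entries of miRNA catalogues lie inside genes of other RNA classes, and the entries of this kind in the small RNA libraries of Mono Mac 6 (MM6) cells are described here. They were chosen by name, as the mature miRNA rows of miR-3607, miR-1246, miR-1291, miR-1248, miR-664, miR-3653, miR-1260a, miR-1260b, miR-720 and miR-4485, names that are tied to snoRNA, snRNA, tRNA or rRNA sequence. The rule found 12 of the 314 mature miRNA names in the deposited tables, which hold 1380 rows of all RNA classes. Of the 12, 10 were listed in the tables without and with LPS: miR-3607-5p, miR-3607-3p, miR-1291, miR-3653, miR-1248, miR-664a-5p, miR-664a-3p, miR-664b-5p, miR-664b-3p and miR-1246. miR-1260a and miR-1260b were listed without LPS only, and miR-720 and miR-4485 were not listed.

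MM6 is a human monocytic cell line. Wild-type MM6 cells were compared with 5-LOΔ MM6 cells, in which CRISPR/Cas9 had removed 5-lipoxygenase (5-LO), the enzyme that starts leukotriene synthesis. All cells had been differentiated for 72 h by TGF-β (1 ng/mL) together with calcitriol (50 nM). In each genotype 3 libraries came from cells without LPS and 3 from cells given 1 µg/mL LPS for 6 h, 12 libraries in all. The 5-LOΔ cells came from more than 1 single-cell clone, and the labels do not tell which clone stands behind a library. The tables give 1 value per RNA and group, the authors' mean of normalized counts over the 3 libraries, so the spread between libraries is missing for all but the lowest values. The error given with a mean is therefore its counting error, rebuilt from the size factors of the libraries, and a 95% counting interval covers the sampling of reads but not differences between cultures. No test between genotypes could be made on these means. A change is called here when it passes 1.5-fold, a size limit without a p-value. All 6 myeloid marker miRNAs, among them miR-223-3p and miR-142-3p, were above 0 in the 4 groups, with a lowest mean of 58.0 normalized counts. Of 11 markers of liver, muscle, neurons, erythroid and epithelial cells, 2 were listed, miR-9-5p and miR-200c-3p, with a highest mean of 42.3.

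A canonical miRNA is cut from a hairpin by Drosha and Dicer and is then loaded into an Argonaute protein, where its seed near the 5′ end pairs with target mRNAs. Small nucleolar RNAs (snoRNAs) are longer and mostly come from introns of other genes. Those of the box C/D class guide ribose methylation and those of the H/ACA class guide pseudouridylation of rRNA and other RNAs. U2 snRNA is part of the spliceosome, where it pairs with the branch site of an intron. Fragments of all these RNAs enter small RNA libraries, so a read from such a locus can be filed under a miRNA name and under the name of its host RNA.

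The mature sequences show which entries could be told apart and which share letters with a host RNA. RefSeq gave a sequence for 9 of the 12 entries, printed 5′ to 3′ with the seed, bases 2 to 8, in capitals. miR-3607-5p, miR-3607-3p and miR-3653 are named only.
miR-1246: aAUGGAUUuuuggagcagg
miR-1291: uGGCCCUGacugaagaccagcagu
miR-1248: aCCUUCUUguauaagcacugugcuaaa
miR-664a-5p: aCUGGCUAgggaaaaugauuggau
miR-664b-5p: uGGGCUAAgggagaugauugggua
miR-664a-3p: uAUUCAUUuauccccagccuaca
miR-664b-3p: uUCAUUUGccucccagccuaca
miR-1260a: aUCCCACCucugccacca
miR-1260b: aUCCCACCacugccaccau
miR-1260a and miR-1260b had the same seed, and no other pair did. miR-664a and miR-664b are paralogs: their 5p sequences were identical at 17 of 23 aligned bases and their 3p sequences at 14 of 22, but shifted by 1 base, so that their seeds differed.

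The host genes were located on GRCh37, the hg19 build to which the authors annotated their reads. miR-3607 is the gene MIR3607 on the forward strand of chromosome 5, chr5:85916323-85916385, annotated as a snoRNA and overlapping an annotated UTR of COX7C, which encodes a subunit of cytochrome c oxidase. The other snoRNA hosts lay in introns of protein-coding genes. miR-1291 was found at bases 2 to 25 of SNORA34, in KANSL2, miR-1248 at bases 1 to 27 of SNORA81, in EIF4A2, and miR-3653 belongs to the box C/D snoRNA SNORD125 (chr22:29729152-29729247, reverse strand), in AP1B1. miR-664a and miR-664b were found in SNORA36B, in RAB3GAP2, and in SNORA36A, in DKC1, the gene of the pseudouridine synthase of the H/ACA class itself. The 4 H/ACA hosts are printed in DNA letters with the mature sequences in capitals, because the place of the capitals bears on how reads were counted.
SNORA34, chr12:49048165-49048301, reverse strand, miR-1291: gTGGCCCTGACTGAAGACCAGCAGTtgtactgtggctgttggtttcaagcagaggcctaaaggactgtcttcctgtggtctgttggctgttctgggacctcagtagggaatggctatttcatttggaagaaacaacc
SNORA81, chr3:186504464-186504641, forward strand, miR-1248: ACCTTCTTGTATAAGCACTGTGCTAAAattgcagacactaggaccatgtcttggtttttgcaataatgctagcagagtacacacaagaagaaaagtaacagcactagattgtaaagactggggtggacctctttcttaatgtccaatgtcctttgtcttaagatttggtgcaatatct
SNORA36B, chr1:220373888-220374018, reverse strand, miR-664a: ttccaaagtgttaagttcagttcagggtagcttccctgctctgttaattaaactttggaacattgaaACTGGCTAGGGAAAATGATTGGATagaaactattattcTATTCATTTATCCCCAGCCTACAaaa
SNORA36A, chrX:153996803-153996934, forward strand, miR-664b: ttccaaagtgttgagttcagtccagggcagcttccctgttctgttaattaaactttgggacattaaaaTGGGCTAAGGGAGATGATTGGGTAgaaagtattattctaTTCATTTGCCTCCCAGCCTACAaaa
miR-1291 and miR-1248 sit at the 5′ end of their snoRNA, and the arms of miR-664a and miR-664b are the strands of its last hairpin, ending at base 128 of 131 and base 129 of 132. Of the members, miR-1291, miR-1248, miR-664a-5p, miR-664a-3p and miR-664b-5p each had 1 match in the genome, while miR-664b-3p had 2, in SNORA36A and SNORA36C.

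miR-1246 is the entry related to U2 snRNA. On the assembled chromosomes its 19 bases matched at 7 places, and unplaced sequence was not searched. Of these, 6 lay in loci of the U2 family annotated as snRNA genes (RNU2-6P, RNU2-7P, RNU2-33P, RNU2-37P, RNU2-48P and RNU2-61P). The symbols of all 6 end in P, the mark of a pseudogene. The remaining match was its own hairpin on the reverse strand of chromosome 2 (chr2:177465708-177465780), in no protein-coding gene of that strand. The hairpin from RefSeq and the stretch of RNU2-6P around the match (chr13:46948571-46948643, reverse strand) are shown with the shared letters in capitals.
MIR1246 hairpin: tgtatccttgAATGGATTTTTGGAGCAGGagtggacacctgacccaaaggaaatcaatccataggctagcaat
RNU2-6P: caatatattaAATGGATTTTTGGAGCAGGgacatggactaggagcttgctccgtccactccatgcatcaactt
In all 6 snRNA genes the run identical to the hairpin was exactly these 19 bases, with 0 further identical bases on either side. A read of these bases alone therefore has the same letters at the hairpin and at the 6 snRNA genes. The tables have no snRNA rows, so no U2 value could be set beside miR-1246.

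miR-3607 headed the mature miRNA rows in every group. miR-3607-3p had a mean of 22225 ± 84.9 normalized counts (counting error) in wild-type and 20323 ± 84.8 in 5-LOΔ cells without LPS, and 19561 ± 81.0 and 21247 ± 86.9 with LPS. miR-3607-5p followed at 22198, 20288, 19543 and 21199 in the same order. The rows thus ranked 1 and 2 among 285 mature miRNA rows without LPS and 262 with LPS. miR-1291, from SNORA34, ranked 4, 4, 3 and 4, with means of 9633 ± 55.9, 11289 ± 63.2, 8828 ± 54.4 and 9680 ± 58.6. These values are counts per row and not per length. For comparison, let-7f-5p, an abundant member of the let-7 family, had means of 5749, 8063, 5115 and 6594, and miR-21-5p, a miRNA common in myeloid cells, had 2499, 3885, 2816 and 3188.

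The other entries stood 1 or more orders of magnitude below miR-3607. miR-3653 had means of 479 ± 12.5, 468 ± 12.9, 411 ± 11.7 and 588 ± 14.5 normalized counts in wild-type, 5-LOΔ, wild-type with LPS and 5-LOΔ with LPS. miR-1248 had 158 ± 7.15, 165 ± 7.65, 166 ± 7.45 and 268 ± 9.76. For both, 5-LOΔ cells with LPS were the highest group also as a share of all rows, at 57.8 ppm of the column sum for miR-3653 (38.6 to 44.5 in the other groups) and 26.4 ppm for miR-1248 (13.6 to 17.1). miR-664a-5p had 159 ± 7.17, 110 ± 6.23, 133 ± 6.68 and 97.6 ± 5.89, with 5-LOΔ cells below wild-type cells in either table. miR-664b-5p had 116 ± 6.13, 126 ± 6.68, 107 ± 5.99 and 92.2 ± 5.73 and showed no common direction between the genotypes. miR-664a-3p (74.7 to 123) and miR-664b-3p (61.7 to 88.8) lay below their 5p arms in all 4 groups. miR-1246 was the lowest entry of those listed in both tables, at 8.88 ± 1.70, 23.1 ± 2.86, 6.16 ± 1.44 and 21.5 ± 2.77, and ranked between 90 and 117 among the mature rows.

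**Figure D1:**
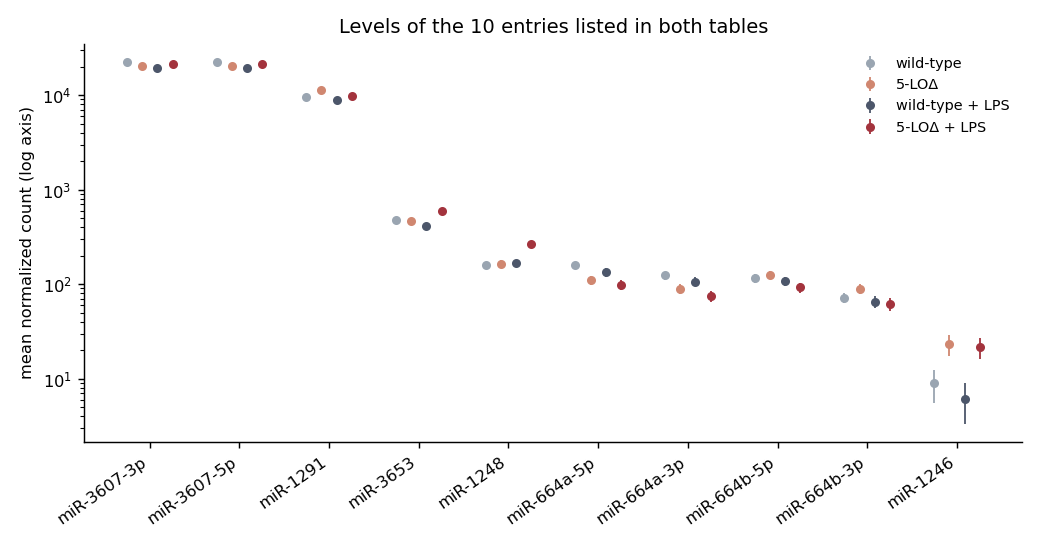
Mean normalized counts (log axis) of the 10 entries listed in both tables, in the 4 groups; points are the authors' means over 3 libraries and bars are 95% counting intervals. Both miR-3607 arms lie between 19543 and 22225 in all groups, and miR-1246 is the only entry whose means lie below 25 in all 4.

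Together the entries made up 53.9% of the summed mature miRNA means in wild-type and 46.7% in 5-LOΔ cells, and 52.5% and 48.3% with LPS. miR-3607-3p alone held 21.7%, 17.9%, 21.0% and 19.3%. When each locus was counted once, by its precursor row, the entries made up 41.2%, 35.3%, 40.0% and 36.3%. The share was thus lower in the 5-LOΔ cells in either table and by either way of counting. The sum of the other mature miRNA rows was higher in the 5-LOΔ cells, at 60394 against 47234 without LPS and 56987 against 44282 with LPS. Relative to all rows without precursors, the sum of the entries was lower in 5-LOΔ cells without LPS (log2 ratio of shares -0.23) and higher with LPS (0.06).

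The rows of the 2 miR-3607 arms were nearly equal to each other and to the precursor row. The ratio of the 5p to the 3p mean was 0.9988, 0.9983, 0.9991 and 0.9977 in wild-type, 5-LOΔ, wild-type with LPS and 5-LOΔ with LPS. The precursor row mir-3607 had the same mean as miR-3607-3p in 3 groups and a mean higher by 0.5 in wild-type cells. It was above miR-3607-5p in all 4 groups, by 26.9, 35, 17.7 and 48.3 normalized counts, so the small gap between the arms lay on the 5p side throughout. Since the arms may share nearly all their reads, a counting interval for separate reads was not used. The 5p and 3p means thus added up to 1.999, 1.998, 1.999 and 1.998 times the precursor mean. If every read of an arm is also a read of the precursor row, at least 99.8% to 99.9% of the precursor's reads were counted in both arm rows.

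The miR-664 entries had the same property in part. Their arms added up to 1.777, 1.798, 1.797 and 1.765 times the precursor for mir-664a and to 1.606, 1.696, 1.603 and 1.669 times for mir-664b. On the same assumption, at least 76.5% to 79.8% of the mir-664a reads and 60.3% to 69.6% of the mir-664b reads were counted in both arms. A canonical precursor gives separate 5p and 3p reads, whose sum should not exceed the precursor row by much. Among other precursors with both arms listed above 0 and a precursor mean of at least 20, the ratio had a median of 1.00 in each group (33 to 39 precursors) and a highest value of 1.09 to 1.17, and none passed 1.5. In 23 to 28 of them it lay within 5% of 1. This is a description of how the rows were filled. The paper's size window let through inserts as long as a precursor, and its read length exceeds the 63 bases of MIR3607. A single read could therefore cover all of MIR3607, or both arms in SNORA36B (bases 68 to 128) or SNORA36A (bases 69 to 129). A count in these rows need not stand for an RNA of mature length. Reads that span the arms were not seen directly, since the tables give no lengths of single reads.

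**Figure D2:**
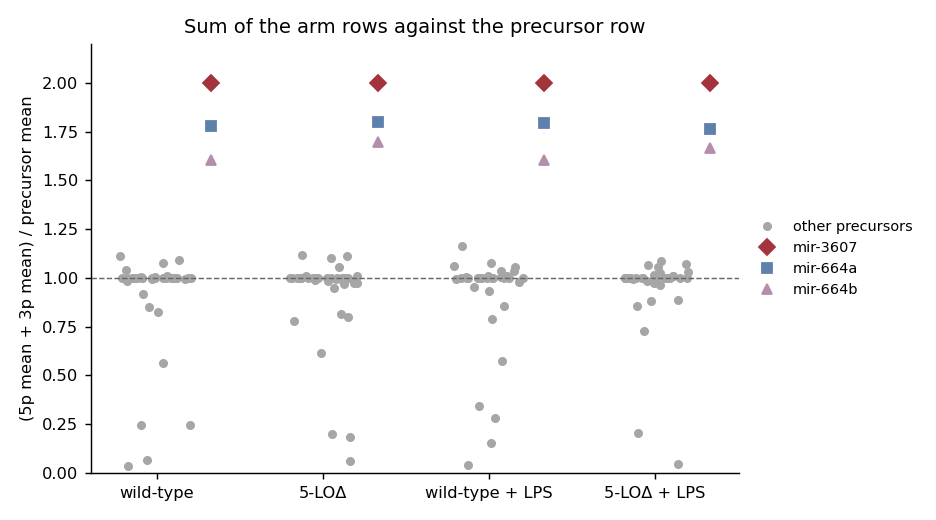
Sum of the 5p and 3p means divided by the precursor mean, in the 4 groups; grey points are other precursors with a mean of at least 20 (placed sideways at random for legibility), coloured symbols are mir-3607, mir-664a and mir-664b. The 3 coloured precursors lie between 1.603 and 1.999 and all others at 1.17 or below.

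The snoRNA rows of the host genes carried nearly the same values as the miRNA rows. The row of SNORD125 was equal to the precursor row of mir-3653 in all 4 groups (481, 469, 412 and 589), and miR-3653 held 99.7% to 99.9% of it. The difference between precursor and mature row came to whole reads of 1 library, namely 4 reads in wild-type, 3 in 5-LOΔ, 2 in wild-type with LPS and 2 in 5-LOΔ with LPS. miR-1291 held 95.7% to 96.3% of the row of SNORA34, which the tables call ACA34 (10001, 11751, 9178 and 10112 normalized counts). miR-1248 held 84.8% to 91.1% of the row of SNORA81, called HBI-61 (186, 195, 190 and 294). SNORA34 is 137 bases long and SNORA81 178 bases, whereas their miRNA entries cover 24 and 27 bases at the 5′ end. A longer fragment from that end would hold the same bases, and whether such fragments were counted in the miRNA rows was not tested.

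For the miR-664 paralogs the 5p arm took nearly the whole snoRNA row. miR-664a-5p held 99.4% to 100% of the row of SNORA36B (ACA36B) and miR-664b-5p 98.6% to 99.3% of that of SNORA36A (ACA36). The 3p arms held less, 76.5% to 80.4% for miR-664a-3p and 60.1% to 70.0% for miR-664b-3p. The row of ACA36B and the precursor mir-664a differed by 2 reads of 1 library in wild-type cells and by 3 reads of 1 library in wild-type cells with LPS, and were equal in the 5-LOΔ groups. The tables have no snoRNA row under the name of miR-3607.

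Changes between the genotypes were small for most entries. Without LPS, 1 of 10 entries passed 1.5-fold, miR-1246, which was higher in 5-LOΔ cells. Of the other mature miRNA rows above 0 in both genotypes, 25.5% were at least 1.5-fold higher and 19.4% at least 1.5-fold lower. Of the snoRNA rows it was 9.93% in each direction, and of the tRNA rows 3.51% higher and 52.6% lower. With LPS, 2 of 10 entries passed, miR-1246 and miR-1248, both higher. The backgrounds with LPS were 22.2% higher and 18.3% lower for other mature miRNA rows, 12.6% and 9.47% for snoRNA rows, and 0% and 83.3% for tRNA rows. Over all rows, 17.1% were higher and 19.9% lower without LPS, and 16.9% and 20.7% with LPS. With 10 entries these counts are near the background of the snoRNA rows on the deposited scale, where no entry passed in the lower direction. Both counts depended on the scaling. When the sums of all rows, other mature miRNA rows, snoRNA rows or tRNA rows were made equal, 3, 3, 2 and 3 entries passed without LPS and 2, 3, 2 and 9 with LPS. The miR-664a entries then passed in the lower direction, both arms under scaling to all rows and to other mature miRNA rows and miR-664a-5p under scaling to snoRNA rows without LPS, and both arms under scaling to other mature miRNA rows with LPS. Since a precursor, its arms and a snoRNA row can hold the same reads, the entries are not independent of the snoRNA rows beside them. Nor are the arms of miR-3607, miR-664a and miR-664b independent of each other, so counts out of 10 entries are not counts of separate loci.

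miR-3607 was 0.914-fold in 5-LOΔ cells without LPS by either arm. The log2 ratio of miR-3607-3p was -0.13 (95% counting interval -0.145 to -0.113) without LPS and 0.12 (0.103 to 0.136) with LPS. Neither value passed 1.5-fold as deposited, and the sign depended on the scaling: it turned positive without LPS when the genotypes were scaled to equal sums of tRNA rows (0.228) and negative with LPS when they were scaled to equal sums of the other mature miRNA rows (-0.245). With LPS, equal sums of tRNA rows gave 1.16, and both arms then passed 1.5-fold. Among the snoRNA rows, 32.3% had a lower log2 ratio than miR-3607-3p without LPS and 57.2% with LPS, an order that no scaling changes. miR-1291 had log2 ratios of 0.23 (0.206 to 0.252) and 0.13 (0.108 to 0.157), which also turned negative when the other mature miRNA rows were made equal. It stood above 65.6% and 57.9% of the snoRNA rows. The miR-3607 arms and miR-1291 therefore lay in the middle of the snoRNA rows in either table.

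The miR-664 paralogs are given side by side, and their difference was not tested. miR-664a-5p was 0.690-fold in 5-LOΔ cells without LPS (log2 -0.54, counting interval -0.741 to -0.33) and 0.733-fold with LPS (-0.45, -0.67 to -0.226), the lowest ratio among the 10 entries without LPS. miR-664a-3p gave -0.48 and -0.51. These values missed the 1.5-fold limit as deposited. Without LPS, miR-664a-5p passed it under 3 of the 4 scalings (-0.71 for all rows, -0.89 for other mature miRNA rows and -0.595 for snoRNA rows) and miR-664a-3p under the first 2 of these (-0.651 and -0.831). With LPS, both arms passed it only when the other mature miRNA rows were made equal (-0.812 and -0.871), and their sign turned when the tRNA rows were made equal, where miR-664a-5p passed in the higher direction (0.588). The host row ACA36B gave -0.53 and -0.45. miR-664b-5p gave 0.12 (-0.0932 to 0.33) and -0.21 (-0.449 to 0.0235), intervals that include 0, and its host row ACA36 gave 0.11 and -0.22. miR-664b-3p gave 0.30 (0.0425 to 0.564) without LPS, an interval above 0, and -0.08 (-0.372 to 0.218) with LPS, and like the other miR-664b values these changed sign with the scaling. SNORA36B and SNORA36A, the respective host genes, lie on chromosomes 1 and X.

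miR-1248 and miR-3653 had higher ratios with LPS than without, and miR-3653 did not pass 1.5-fold in either table as deposited. miR-1248 was 1.05-fold in 5-LOΔ cells without LPS (log2 0.07, -0.116 to 0.251) and 1.62-fold with LPS (0.70, 0.532 to 0.859). The difference between the effects was 0.63 on the log2 scale, with a counting interval of 0.382 to 0.874, and that of its host row HBI-61 was 0.56. miR-3653 gave -0.03 (-0.141 to 0.0732) and 0.52 (0.409 to 0.623), a difference of 0.55 (0.399 to 0.701). Both were above 0 with LPS under every scaling tried, but miR-1248 no longer passed 1.5-fold (log2 0.332) when the other mature miRNA rows were made equal. miR-3653 passed it with LPS (log2 1.55) when the tRNA rows were made equal. Among snoRNA rows with LPS, 94.0% had a lower ratio than miR-1248 and 82.1% a lower ratio than miR-3653, against 52.5% and 41.5% without LPS. Whether these differences exceed the spread between cultures could not be tested on means.

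**Figure D3:**
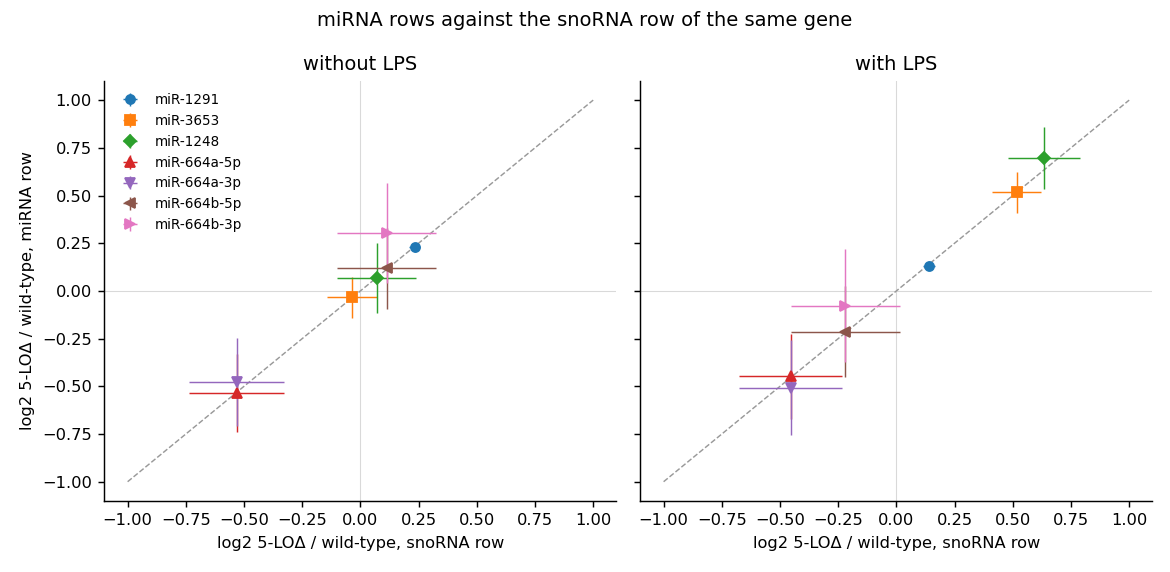
log2 ratio of 5-LOΔ to wild-type means of a miRNA row (vertical axis) against that of the snoRNA row of the same gene (horizontal axis), without and with LPS; bars are 95% counting intervals and the dashed line marks equal values. The entries lie close to the line, from miR-664a near -0.5 to miR-1248 near 0.7 with LPS, except miR-664b-3p, which lies above it. Its ratio was 0.30 against 0.11 for ACA36 without LPS and -0.08 against -0.22 with LPS. The rows of a pair can hold the same reads.

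miR-1246 had the highest ratio of the entries, 2.60-fold in 5-LOΔ cells without LPS (log2 1.38, counting interval 0.737 to 2.02) and 3.50-fold with LPS (1.81, 1.05 to 2.56), and was higher under every scaling tried. Its precursor row had identical values. Its wild-type means (8.88 and 6.16) are low enough that the reads of each library could be rebuilt. Its 5-LOΔ means (23.1 and 21.5) lie above 10, the highest mean used to find the size factors, and their splits are weaker: of printable values just above them, 60.3% without and 52.5% with LPS would also be sums of whole reads, compared with 1.5% and 0.9% for the wild-type means. The reads, SDs and permutation p-values that follow hold only if these splits are right. The 3 wild-type libraries without LPS held 19, 7 and 4 reads, and the 5-LOΔ libraries 43, 26 and 7, listed from the largest to the smallest size factor. Divided by size factors these were 15.2, 6.89 and 4.53 against 32.2, 27.5 and 9.66. The groups overlapped, since the lowest 5-LOΔ library lay below the highest wild-type library. An exact two-sided permutation test of the means gave p = 0.2 (n = 3 per group), and the smallest value such a design can give is 0.1.

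With LPS, the wild-type libraries held 15, 4 and 4 reads of miR-1246 and the 5-LOΔ libraries 51, 13 and 8. The normalized values were 8.72, 3.73 and 6.01 against 39.2, 15.6 and 9.85. Here the groups did not overlap, by a margin of 8.72 against 9.85, and the exact two-sided permutation p was 0.1, the smallest possible. The mean ± SD (n = 3) was 8.88 ± 5.61 in wild-type and 23.1 ± 11.9 in 5-LOΔ cells without LPS, and 6.16 ± 2.50 and 21.5 ± 15.6 with LPS. Without its highest library, the 5-LOΔ group with LPS gave a log2 ratio of 1.05 in place of 1.81. With 3 libraries against 3 neither comparison could reach 0.05.

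The spread of miR-1246 between libraries was set beside counting error by a dispersion index, which is 1 for counting error only. It was 3.64, 4.85, 1.26 and 10.7 in wild-type, 5-LOΔ, wild-type with LPS and 5-LOΔ with LPS, against a median of 0.756 to 1.00 and a mean of 1.39 to 2.04 over the 4 groups for rows with means from 5 to 10. The value in wild-type cells with LPS was below the mean of such rows in that group, 1.5, and the 5-LOΔ means of miR-1246 lie above the range of these rows. In all 4 groups the highest normalized value came from the library with the largest size factor. Among other low rows, 34.0%, 55.9%, 43.5% and 50.0% had their highest value in that library, and the part of depth in the miR-1246 values was not tested.

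**Figure D4:**
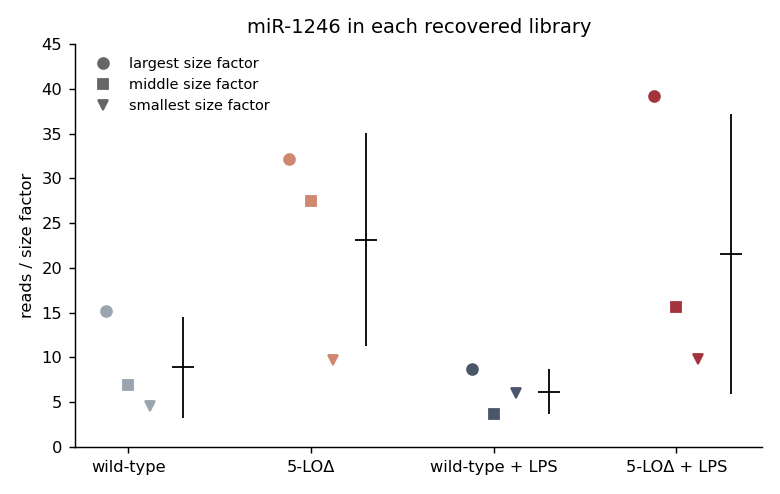
Reads of miR-1246 divided by the size factor in each recovered library of the 4 groups; symbols mark the order of the size factors, black lines the mean and SD of 3 libraries. The 5-LOΔ splits are the less certain ones. The circles, for the largest size factor, are highest in each group, and with LPS the lowest 5-LOΔ value (9.85) lies just above the highest wild-type value (8.72).

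Set against the RNA classes of their hosts, the entries lay within the range of the snoRNA rows, miR-1246 with LPS excepted, and mostly above the tRNA rows. The median log2 ratio of the 10 entries was 0.02 without LPS and 0.12 with LPS. That of the snoRNA rows was 0.05 (quartiles -0.25 and 0.359, 282 rows) and 0.00 (-0.315 and 0.381, 285 rows), and that of other mature miRNA rows was 0.10 (196 rows) and 0.09 (180 rows). The tRNA rows had medians of -0.68 (quartiles -1.14 and -0.397, 57 rows) and -1.16 (-1.75 and -0.785, 54 rows). Of the tRNA rows above 0 in both genotypes, 53 of 57 were lower in 5-LOΔ cells without LPS and 53 of 54 with LPS, and each of the 10 entries stood above at least 57.9% of the tRNA rows without LPS and 87.0% with LPS. The share of all tRNA rows in the summed means was 0.616% in wild-type, 0.426% in 5-LOΔ, 0.952% in wild-type with LPS and 0.442% in 5-LOΔ cells with LPS, while the snoRNA share was 64.4%, 59.4%, 64.2% and 60.2%. The most abundant snoRNA rows were U29, U104 and U26, with log2 ratios of -0.31, 0.43 and -0.11 without LPS and 0.03, 0.21 and 0.09 with LPS. The most abundant tRNA rows, tRNA-Glu-GAG_, tRNA-Asp-GAY and tRNA-Gln-CAA_, had -0.34, -0.50 and -0.05 without LPS and -0.73, -1.57 and -1.41 with LPS.

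**Figure D5:**
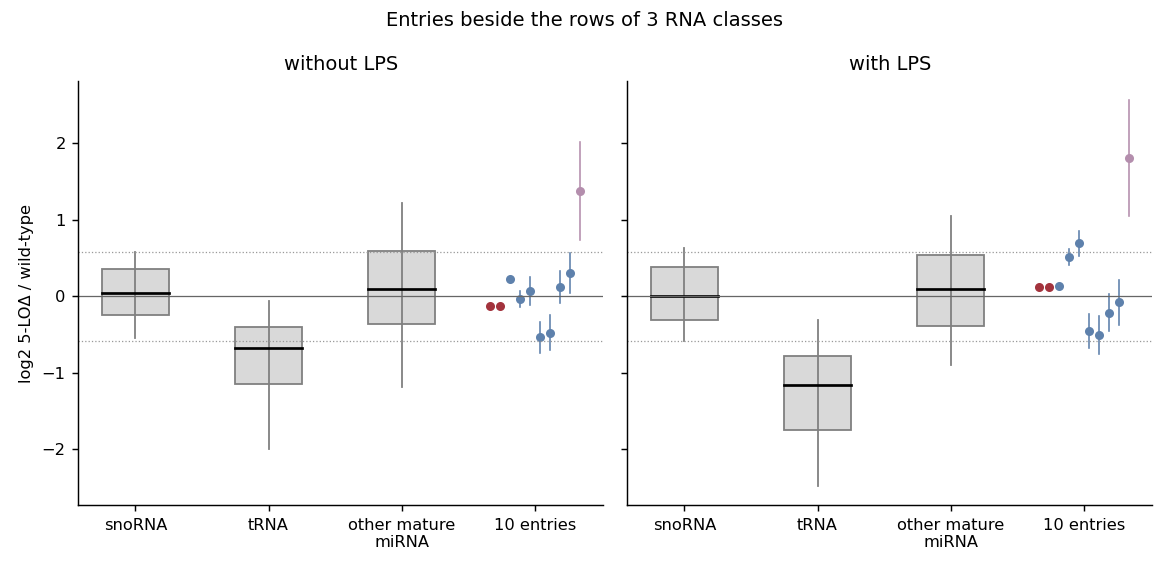
log2 ratio of 5-LOΔ to wild-type means without and with LPS; boxes give the quartiles and median of snoRNA, tRNA and other mature miRNA rows, vertical lines the 10th to 90th percentile, points the 10 entries with 95% counting intervals (red, miR-3607-3p and miR-3607-5p; purple, miR-1246), and dotted lines 1.5-fold on the deposited scale. The entries other than miR-1246 lie within about 0.7 of 0, and the tRNA boxes lie below 0.

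The entries tied to tRNA were at the limit of detection. miR-1260a and miR-1260b, which background knowledge ties to tRNA-Leu, each had a mean of 0.267 in wild-type cells without LPS, which is 1 read in 1 library, and were listed at 0 in 5-LOΔ cells. No fold was computed for them. Their sequences matched the genome at 4 and 2 places, of which 0 lay in an annotated snoRNA, snRNA or other small RNA gene. The miRNA genes MIR1260A and MIR1260B lay in no protein-coding gene of their own strand, and the other strand was not checked. Nuclear tRNA genes were not part of the annotation used here, so the tie to tRNA comes from background knowledge and its overlap was not tested. Whether the same read was filed under both names was not tested. All 6 tRNA-Leu rows were lower in 5-LOΔ cells, with log2 ratios from -1.17 to -0.421 without LPS and from -1.61 to -0.524 with LPS. Of the tRNA-Thr rows, the class tied to miR-720, 5 of 5 were lower without LPS and 3 of 4 with LPS (the fifth was listed at 0 in 5-LOΔ cells with LPS), and their summed means fell from 130 to 45.4 and from 171 to 49.0. On a scale that makes the tRNA sums equal, which adds 0.357 without LPS and 1.04 with LPS to each log2 ratio, none of the tRNA-Leu and tRNA-Thr rows lies above 0 without LPS and part of them do with LPS. The rRNA rows, the class tied to miR-4485, gave log2 ratios of 0.64 and 0.46 for 5S, 0.21 and 0.27 for the large subunit and -0.46 and -0.05 for the small subunit rRNA, without and with LPS.

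The 8 canonical miRNAs chosen for comparison had log2 ratios from -0.58 to 0.64 over both tables, within which all entries but miR-1246 and, with LPS, miR-1248 lay. Over all other mature miRNA rows the 10th to 90th percentile ran from -1.19 to 1.22 without LPS and from -0.895 to 1.05 with LPS. Of miR-21-5p, miR-223-3p, miR-142-3p, miR-142-5p, miR-16-5p, let-7f-5p, miR-103a-3p and miR-191-5p, only miR-21-5p passed 1.5-fold without LPS (log2 0.64) and none with LPS, where miR-103a-3p was lowest at -0.58 and miR-142-5p highest at 0.55. miR-191-5p had -0.29 and 0.08 and miR-16-5p -0.03 and 0.40. miR-223-3p, a miRNA typical of myeloid cells, gave -0.34 and -0.06, with intervals of -0.593 to -0.0801 and -0.364 to 0.247.

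The tables were normalized separately, so LPS was followed through each entry's share of all rows in its own column. The log2 ratio of that share, with over without LPS, was -0.0321 in wild-type and 0.321 in 5-LOΔ cells for miR-3607-3p. For miR-1248 it was 0.223 (counting interval 0.0421 to 0.403) in wild-type and 0.955 (0.789 to 1.12) in 5-LOΔ cells. Its host row HBI-61 gave 0.184 and 0.852. For miR-3653 the values were -0.0689 (-0.178 to 0.0403) and 0.585 (0.481 to 0.69), and SNORD125 gave -0.0721 and 0.584. For miR-1291 they were near 0 in both genotypes, 0.0262 and 0.0347, and the intervals of miR-1246, -1.23 to 0.477 and -0.35 to 0.659, included 0. The comparisons with and without LPS within a genotype and those between genotypes share the same 4 columns and are not independent of each other.

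The rows whose profile over the 4 groups was most like each entry were found by the Euclidean distance between row-centred log2 shares, among 561 rows with means of 20 or more in every group. For miR-1291, miR-3653, miR-1248, miR-664a-5p and miR-664b-5p the nearest snoRNA row was the host row, at distances of 0.00664, 0.00245, 0.0838, 0.00669 and 0.00684. For miR-3607-3p, which has no host row, the nearest snoRNA rows were U26 (0.0306), HBII-135 (0.0315) and U96a (0.0669), and the nearest mature miRNA was miR-191-5p (0.117). The 3p arms of miR-664a and miR-664b lay nearest to mgh28S-2409 (0.0503) and U37 (0.0147). The next snoRNA neighbours were HBII-52-13 and U49B for miR-1291, HBII-180C and U97 for miR-3653, ACA23 and HBII-180C for miR-1248, U18A and HBI-6 for miR-664a-5p, and U59A and U60 for miR-664b-5p. Every nearest other mature miRNA was farther away than the nearest snoRNA row, from 0.0961 for miR-98-5p beside miR-1291 to 0.479 for miR-27b-3p beside miR-1248. The host rows carried nearly the same values as their entries, so a short distance to them was given in advance and tells nothing about likeness to snoRNAs. The snoRNA rows are also more numerous at these levels (257 against 74 other mature miRNA rows), and a distance over 4 means is a description only. miR-1246 had means under 20 in the wild-type groups and was not placed.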

How the data were processed

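From total RNA of wild-type and 5-LOΔ cells, the authors made libraries, pooled and size-selected them for mature and precursor miRNA, sequenced them and annotated reads against hg19 with omiRas. The signal columns deposited by the authors hold the mean of normalized counts over the 3 libraries of a genotype, 1 table without and 1 with LPS. Neither scaling nor aligner is given in the sources used here. Further columns hold the authors' own log2 fold change, p-value and FDR and were not used. The summed means were 10757419 (wild-type) and 12142907 (5-LOΔ) without LPS, and 9680900 and 10165615 with LPS.

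Entries were taken by name, and the members and lists were chosen with earlier results of these data known. The design allowed for values of single libraries, but the tables hold means, so its fallback without a test was used. Size factors (1.25, 1.02 and 0.883 for wild-type, 1.34, 0.945 and 0.725 for 5-LOΔ, 1.72, 1.07 and 0.665 for wild-type with LPS, 1.30, 0.835 and 0.812 for 5-LOΔ with LPS) were rebuilt from means of at most 10, each of which was a sum of whole reads in 1 way. They gave reads of miR-1246 per library (split up to a mean of 25) and, for every mean, a counting error. Of means from 10 to 25, 98.8% split in 1 way in wild-type, 94.3% in 5-LOΔ, 0% in wild-type with LPS and 88.6% in 5-LOΔ with LPS. The miR-1246 mean of wild-type cells with LPS, 6.16, lies below that range. Recovery and intervals were tested on simulated data. The tables show no sign of molecular identifiers, and intervals cover counting error alone. Recovered libraries have no replicate number. Recovered reads were compared by an exact permutation test of 3 against 3. Log2 ratios had no pseudocount, and rows at 0 in a genotype were left out of class counts.

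Sequences are from RefSeq (GRCh38.p14 table, used for letters only), and genes and matches are from GRCh37 with GENCODE genes lifted to it, counted from 1. Unplaced sequence of the assembly was not searched, and protein-coding genes around a locus were sought on its own strand only. Named were all members, their precursor and host rows, tRNA-Leu, tRNA-Thr and rRNA rows, 8 canonical miRNAs, the 3 snoRNA and 3 mature rows nearest in profile (in part), and the 3 most abundant snoRNA and tRNA rows. SNORD125 and the miR-3651 rows were named after their values were seen. Alternatives were 4 scalings, pseudocounts of 0.1, 1 and 10, minimum means of 10 and 50, a 2-fold limit, other denominators and leaving out each recovered library. Python 3.11.15, numpy, pandas, scipy and matplotlib were used.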

Additional observations from a re-analysis of the deposited data

How the results depend on the processing

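Making the sums of all rows, other mature miRNA rows, snoRNA rows or tRNA rows equal shifted each log2 ratio by -0.175, -0.355, -0.059 and 0.357 without LPS and by -0.0705, -0.364, 0.022 and 1.04 with LPS. Without LPS, 3, 3, 2 and 3 of 10 entries then passed 1.5-fold in place of 1, miR-1246 in each case joined by miR-664a-5p, by both miR-664a arms, or under tRNA scaling by miR-1291 and miR-664b-3p. With LPS, 9 passed under tRNA scaling in place of 2, and 3 under scaling to other mature miRNA rows, where both miR-664a arms passed and miR-1248 (0.332) did not. miR-3607-3p gave -0.304, -0.484, -0.188 and 0.228 without LPS, and 0.0488, -0.245, 0.141 and 1.16 with LPS, so its sign was not stable. miR-1246 with LPS gave 2.84 under tRNA scaling and 0.965 with a pseudocount of 10, and stayed positive under all settings. Leaving out 1 library at a time, its log2 ratio ran from 1.06 to 2.02 without LPS and from 1.05 to 2.15 with LPS, lowest without the 5-LOΔ library of the largest size factor with LPS.

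The members' share of the mature sum (log2 ratio of 5-LOΔ to wild-type -0.205 and -0.119) became -0.233 and 0.0558 as a share of all rows without precursors, and -0.118 and 0.146 as a ratio to the snoRNA sum. With each locus counted once, a setting chosen after seeing the data, it was -0.224 and -0.143. With minimum means of 10 or 50, 0 and 0 entries passed 1.5-fold without LPS and 1 and 1 with LPS, since miR-1246 was left out, and with a 2-fold limit 1 passed with LPS. The snoRNA rows past 1.5-fold numbered 56 and 63, against 37 and 40 at a minimum mean of 50, and 13 and 8 passed 2-fold. The tRNA rows numbered 32 without LPS, 18 at a minimum of 10 and 7 at 50, and 45 with LPS, 13 at a minimum of 50. The cause of these differences was not tested. Pseudocounts, tried on the members' ratios only, left the counts of members past 1.5-fold at 1 and 2, and of 64 ratios of the other 8 entries under the 4 scalings 50 had the direction reported. No paired analysis was possible because the columns are means and recovered libraries carry no replicate number.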

Other observations

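A further mature miRNA outside the naming rule lay in a snoRNA gene. Of 314 listed mature names, 262 had a RefSeq sequence, and 8 of these were found whole inside 3371 annotated snoRNA and snRNA genes, 7 of them entries described above. The remaining one, miR-3651, lies in SNORA84, a box H/ACA snoRNA on the reverse strand of chromosome 9 (chr9:95054743-95054875, GRCh37). It had means of 51.5, 71.9, 45.2 and 70.4 normalized counts in wild-type, 5-LOΔ, wild-type with LPS and 5-LOΔ with LPS. The row of SNORA84 had 62.8, 89.8, 57.7 and 77.3, of which miR-3651 held 78.3% to 91.1%. Its log2 ratio of 5-LOΔ to wild-type was 0.48 (95% counting interval 0.183 to 0.782) without LPS and 0.64 (0.325 to 0.956) with LPS, beside 0.52 and 0.42 for the snoRNA row.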
